A study of Mus musculus with 4 samples.

Results

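Endothelial cells line the vessels of the ventricle and are recognised by a set of surface receptors, adhesion molecules and enzymes. The genes described here are 10 of that kind, namely Tie1, Tek, Flt1, Kdr, Cdh5, Pecam1, Eng, Icam2, Aqp1 and Nos3, out of 8251 genes that the arrays measured with a probe set of a single gene. They were chosen by symbol or synonym and were read by 13 probe sets, 2 each for Tie1, Flt1 and Aqp1 and 1 for each of the other 7 genes. The study compared ventricles of mice lacking the orphan nuclear receptor ERRα (labelled ERRa ko, here KO) with ventricles of wild-type mice (ERRa wt, here WT), all unstressed at baseline, to ask which transcripts differ before any load is applied. Each genotype had 2 one-colour Affymetrix arrays of total RNA, and the labels give neither the strain, the sex, the age nor the design of the knockout allele. They do not say that the numbered samples are separate animals, so p-values measure only the spread between these arrays, which may be technical.

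The members take different parts in vessel biology. VEGF ligands act on the tyrosine kinases encoded by Kdr (VEGFR2, the main signalling receptor) and Flt1 (VEGFR1, which binds VEGF tightly and in its soluble form traps it), while angiopoietins act on the kinase encoded by Tek (Tie2), whose relative Tie1 is an orphan receptor that modulates it. Endoglin (Eng) is a co-receptor for ligands of the TGF-β and BMP family, VE-cadherin (Cdh5), PECAM-1 (Pecam1) and ICAM-2 (Icam2) hold endothelial cells together or bind leukocytes, aquaporin 1 (Aqp1) is a water channel, and endothelial nitric oxide synthase (Nos3) makes the gas that relaxes vessels. ERRα is known as a regulator of mitochondrial energy genes, and in muscle it has been linked to the VEGF gene through its coactivator PGC-1α.

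The promoters of the members were looked at for the ERR binding sequence, and 6 of the 10 genes matched the RefSeq promoter table, which holds 250 bases before and 50 after a start site on GRCm38.p6 (Eng, Tek, Tie1, Kdr, Flt1 and Aqp1). Cdh5, Pecam1, Icam2 and Nos3 were not matched. On either strand none of the 6 held TCAAGGTCA, found in 0.423% of the 32851 promoters, or its inner part AAGGTCA, found in 4.72%. The ETS-type sequences CAGGAAG (13.3% of promoters) and CCGGAAG (8.86%) were also in 0 of the 6, and TATAAA (13.6%) was in 1, that of Flt1. The 4-base core GGAA, searched on both strands after these results were seen, lies in 93.4% of all 250-base upstream windows, with a median of 3 copies. Tie1 had 7 copies, more than in 96.2% of windows, Aqp1 had 5, Flt1 and Kdr 4 each, Eng 3 and Tek 2. A match of letters is a description and not a bound site. The upstream windows of Tie1, the member that gave lower KO signals on both of its probe sets, and of Aqp1, whose 2 probe sets disagreed, are printed 5′ to 3′ on the gene's strand, with GGAA and its complement TTCC in capitals. The Tie1 window is chr4:118489850-118490099 on the minus strand and the Aqp1 window chr6:55336049-55336298 on the plus strand. For Flt1, whose 2 probe sets also disagreed, 30 bases are shown from chr5:147726030-147726059 on the minus strand, with TATAAA in capitals.
Tie1: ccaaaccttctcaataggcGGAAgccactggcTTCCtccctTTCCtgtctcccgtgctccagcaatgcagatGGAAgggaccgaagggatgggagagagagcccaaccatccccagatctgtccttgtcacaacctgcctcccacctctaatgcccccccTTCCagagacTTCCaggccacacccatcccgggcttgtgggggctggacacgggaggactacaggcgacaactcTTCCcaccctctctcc
Aqp1: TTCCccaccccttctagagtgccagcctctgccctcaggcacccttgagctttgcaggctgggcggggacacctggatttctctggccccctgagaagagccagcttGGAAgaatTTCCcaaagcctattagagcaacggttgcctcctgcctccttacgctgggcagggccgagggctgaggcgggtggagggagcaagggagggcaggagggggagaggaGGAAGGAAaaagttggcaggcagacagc
Flt1: gtgggctggggaaaggtTATAAAtcgcccc

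The deposited value is a signal per probe set, linear and scaled so that the trimmed means of the 4 arrays are equal. All signals below are on this scale, which allows a probe set to be compared between arrays and not with another probe set. The Esrra probe sets matched the labels: the dimmer gave 83.6 and 55.2 in KO, against 2687.8 and 2828.1 in WT, and the brighter 922 and 1050.2 in KO, against 8598.1 and 8038.5 in WT. Spearman correlations between arrays, taken across probe sets, ran from 0.911 to 0.923. Differences were tested with limma on log2 signals over the 7453 probe sets whose mean signal reached 350.57, and p-values were adjusted over all of them by the Benjamini-Hochberg method with a threshold of 0.05. In that test 1 probe set passed (0.0134%), the dimmer one of Esrra. The ratio of 5′ to 3′ signal of the β-actin control, a measure of RNA integrity, was 0.694 and 0.813 in KO, against 0.966 and 0.909 in WT, and that of Gapdh was 0.994 and 0.968 in KO, against 1.04 and 1.01 in WT; the part of this gap in the results was not tested.

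No member passed the test. All 13 probe sets gave signals above the floor of 110, below which signals were set equal, on all 4 arrays. Of the 13, 10 had a lower mean signal in KO than in WT and 3 a higher one, where 46.8% of all tested probe sets had a lower one. Of the 12 that entered the test, 0 passed by limma and 1 had an unadjusted p under 0.05, the dimmer probe set of Aqp1, which was higher in KO. At that level 4.13% of all tested probe sets were higher and 2.66% lower. This Aqp1 probe set entered the test only through its KO signals, so a difference was partly required of it. The remaining probe set, that of Nos3, lay under the filter. Both KO arrays lay below both WT arrays for 5 of the 12, where 16.7% of all tested probe sets did, and above them for 1, where 20.7% did. Those 5 were both of Tie1, the brighter of Flt1, and those of Cdh5 and Icam2, and KO lay 1.17- to 1.48-fold below WT for them. None of the 5 reached 1.5-fold, a size that 4.12% of tested probe sets reached downward without overlap and 6.84% upward. After median scaling, 2 of the members, on the brighter Tie1 and the Cdh5 probe sets, passed 1.5-fold downward, where 7.07% of all tested probe sets did after that scaling. The median log2 difference, KO minus WT, was -0.20 over the 12 and 0.03 over all probe sets tested. In RNA of whole ventricle, fewer endothelial cells and less RNA per cell cannot be told apart.

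**Figure D1:**
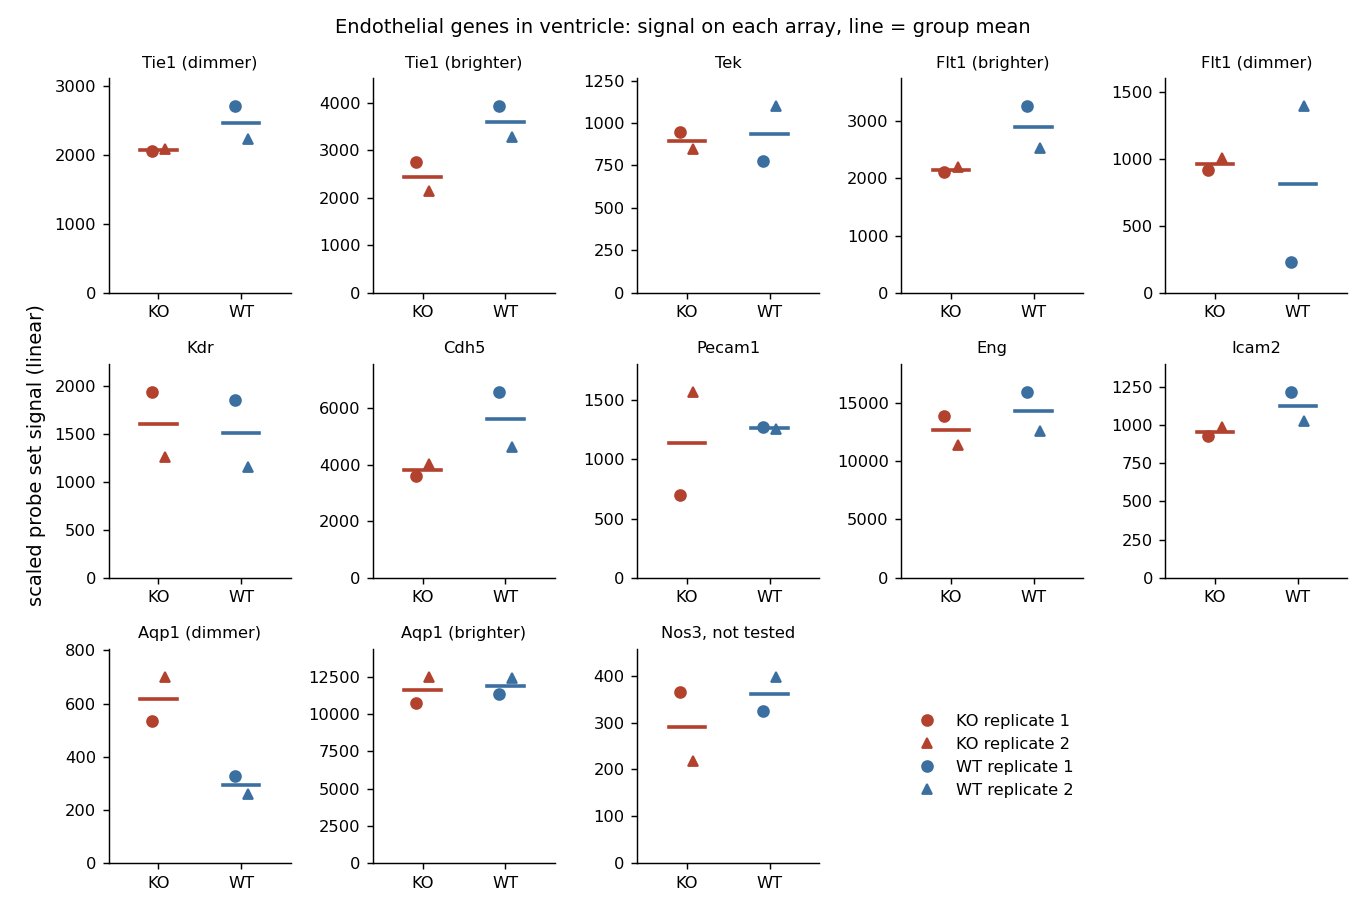
Scaled signal (vertical axis, linear, from 0, each panel with its own range) of the 13 probe sets on each array, KO at the left and WT at the right, with circles for replicate 1, triangles for replicate 2 and a line at the group mean. KO points lie below both WT points for Tie1 on both probe sets, Cdh5, Icam2 and the brighter Flt1 probe set, and above them for the dimmer Aqp1 probe set.

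The angiopoietin receptor family gave lower KO signals for Tie1 and overlapping ones for Tek. The brighter Tie1 probe set gave 2742.9 and 2144.6 in KO, against 3924.1 and 3286.1 in WT. Both KO arrays were below both WT arrays, and the group means were 2444 ± 423 in KO and 3605 ± 451 in WT (SD, n = 2 each). The log2 difference was -0.57 (SE 0.24, 95% interval -1.21 to 0.07, limma adjusted p = 0.745). It was the lowest of the 12, and 6.57% of tested probe sets lay lower still. The second Tie1 probe set, whose ID carries the suffix _f, gave 2057.7 and 2082.8 in KO, against 2709.2 and 2235.7 in WT, again without overlap, with a log2 difference of -0.25 (SE 0.21). Its 2 KO values differed by far less than its 2 WT values. With each array left out in turn, the difference ran from -0.74 to -0.39 on the brighter probe set and from -0.39 to -0.11 on the dimmer. Since the groups did not overlap, leaving out 1 array could change the size of these differences but not their direction.

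Tek gave 944.2 and 844.9 in KO, against 776.6 and 1098.1 in WT. The KO values lay between the WT values, and the log2 difference was -0.05 (SE 0.26, 95% interval -0.74 to 0.64, limma adjusted p = 0.973). Its direction turned to 0.03 without KO replicate 2 and to 0.20 without WT replicate 2. Tie1 and Tek thus differed in how the arrays fell, but the difference between the genes was not tested. The phosphatase encoded by Ptprb, VE-PTP, which acts on the Tie2 receptor and on VE-cadherin, gave 2091.1 and 1940.9 in KO, against 2644.3 and 2221.9 in WT (log2 -0.27, adjusted p = 0.837); it was singled out after its values were seen. Angpt2, an angiopoietin that can antagonise Tie2, also singled out afterwards, gave 527.2 and 299.4 in KO, against 302.3 and 322.2 in WT, with overlap; it entered the test only through its KO signals.

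Among the VEGF receptors, Flt1 gave lower KO signals on its brighter probe set only. That probe set gave 2111.9 and 2199.7 in KO, against 3262.5 and 2539.5 in WT, without overlap. Its means were 2156 ± 62.1 in KO and 2901 ± 511 in WT (SD, n = 2 each), and its log2 difference was -0.42 (SE 0.23, 95% interval -1.02 to 0.19, limma adjusted p = 0.801). The dimmer Flt1 probe set gave 917.6 and 1005.3 in KO, against 227 and 1393.6 in WT. The WT arrays here enclosed the KO arrays, and WT replicate 1, the highest array for the brighter probe set, was the lowest for this one. The log2 difference was 0.77 with an SE of 0.89 (95% interval -1.59 to 3.13), -0.54 without WT replicate 1 and 2.08 without WT replicate 2. The 2 Flt1 probe sets were 1.19 apart in their log2 differences, a gap reached by 6.78% of the 915 genes with several tested probe sets, and whether they read different transcripts of Flt1 is not stated in the sources used here.

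Kdr gave 1939.2 and 1253.5 in KO, against 1853.1 and 1158 in WT. Replicate 1 was higher than replicate 2 in both genotypes, by 0.63 in KO and 0.68 in WT on the log2 scale, and the groups overlapped. The log2 difference between genotypes was 0.09 (SE 0.36, 95% interval -0.87 to 1.05, limma adjusted p = 0.963), and it was -0.03 after median scaling, -0.22 without KO replicate 1 and -0.25 without WT replicate 2. The interval leaves room for a change of nearly 1 log2 unit either way, so the arrays could not show whether Kdr was altered.

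Eng, the TGF-β and BMP co-receptor, gave 13865.7 and 11344.1 in KO, against 15941.3 and 12553.4 in WT. The groups overlapped, since KO replicate 1 lay above WT replicate 2. Means were 12605 ± 1783 in KO and 14247 ± 2396 in WT (SD, n = 2 each), with a log2 difference of -0.17 (SE 0.24, 95% interval -0.82 to 0.47, limma adjusted p = 0.911). Without WT replicate 1 the difference was close to 0. Its partner receptor Acvrl1 (ALK1) was singled out after its values were seen. The brightest of the 3 tested Acvrl1 probe sets, whose ID carries the suffix _r, lay the other way. It gave 3664 and 3924.3 in KO, against 3081.8 and 3424.3 in WT (log2 0.22, limma adjusted p = 0.848). Values of the other Acvrl1 probe sets are not given here.

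Of the adhesion genes, Cdh5 gave the widest gap. VE-cadherin, its product, forms the adherens junctions specific to endothelium. The probe set gave 3604.5 and 4027.1 in KO, against 6583.6 and 4635.5 in WT, with both KO arrays below both WT arrays. Means were 3816 ± 299 in KO and 5610 ± 1378 in WT (SD, n = 2 each), and the log2 difference was -0.54 (SE 0.26, 95% interval -1.23 to 0.16, limma adjusted p = 0.781). WT replicate 1 widened that gap: without it the difference was -0.28, and without WT replicate 2 it was -0.79.

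Icam2, a ligand for leukocyte integrins, gave 925.5 and 988.4 in KO, against 1219.6 and 1023.3 in WT. The groups did not overlap, and the gap between the nearest KO and WT arrays was small. Its log2 difference was -0.22 (SE 0.21, 95% interval -0.79 to 0.34, limma adjusted p = 0.854), and -0.10 without WT replicate 1.

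Pecam1, which encodes CD31, a homophilic adhesion molecule of endothelium also made by platelets and leukocytes, gave 701.9 and 1572.8 in KO, against 1274.2 and 1253.4 in WT. Its WT arrays were almost equal, while its KO arrays lay on either side of them. The log2 difference of -0.27 (SE 0.43, 95% interval -1.41 to 0.88, limma adjusted p = 0.920) was set by KO replicate 1: it was 0.32 without that array and -0.85 without KO replicate 2.

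Aqp1 gave opposite pictures on its 2 probe sets. The brighter gave 10779.7 and 12535.5 in KO, against 11381.2 and 12463.2 in WT, with full overlap. Its log2 difference was -0.03 (SE 0.21, 95% interval -0.59 to 0.52, limma adjusted p = 0.976), and 0.02 after quantile normalization. The dimmer probe set, whose ID carries the suffix _i, gave 533.8 and 701.4 in KO, against 326.5 and 258.1 in WT, so that both KO arrays lay above both WT arrays. KO was 2.11-fold above WT, and the log2 difference was 1.08 (SE 0.26, 95% interval 0.39 to 1.76, unadjusted p = 0.0109 and adjusted p = 0.694 by limma). This probe set entered the test only through its KO signals, since its WT mean of 292 lay under the filter of 350.57 and its KO mean of 618 above it, so a difference was partly required of it. The probe sets were 1.11 apart on the log2 scale, a gap reached by 8.31% of the 915 genes with several tested probe sets.

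Nos3 gave 364.7 and 218.3 in KO, against 325.3 and 398.2 in WT. The groups overlapped, and its mean over the arrays of 327 kept it out of the test. With no filter its log2 difference was -0.35 (SE 0.35, limma adjusted p = 0.850).

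**Figure D2:**
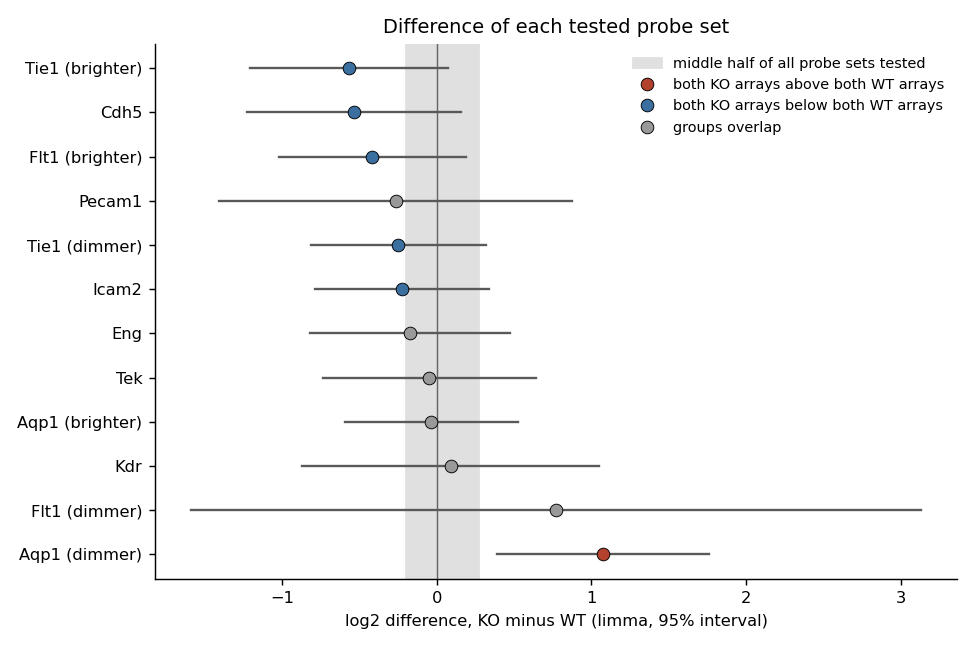
Log2 difference, KO minus WT, of the 12 tested probe sets with 95% intervals from limma, ordered from lowest to highest; the grey band runs over the middle 50% of all tested probe sets, from -0.20 to 0.28. Intervals of 11 probe sets cross 0, and that of the dimmer Aqp1 probe set runs from 0.39 to 1.76. That probe set did not pass after adjustment and entered the test only through its KO signals.

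The lower KO signals went together with high signals on 1 WT array. WT replicate 1 was the highest of the 4 arrays for 6 of the 12 tested members, where 23.3% of all tested probe sets had their highest signal on it. KO replicate 1 was the lowest for 6 of the 12, where 23.4% of all tested probe sets had their lowest signal there. For members lower in KO without overlap, the highest array had to be WT and the lowest KO. Both counts thus partly repeat that result, and the shares over all probe sets are not a like comparison. As a median over the 12, log2 signals lay -0.12 and -0.11 from each probe set's own mean on KO replicates 1 and 2, against 0.25 and 0.02 on WT replicates 1 and 2; the same medians over all tested probe sets lay between -0.01 and 0.03. The difference between the WT arrays was thus about as large for the members as that between the genotypes. Without WT replicate 1 the median log2 difference of the 12 was -0.17, and without WT replicate 2 it was -0.31. With either KO array left out it was -0.20.

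**Figure D3:**
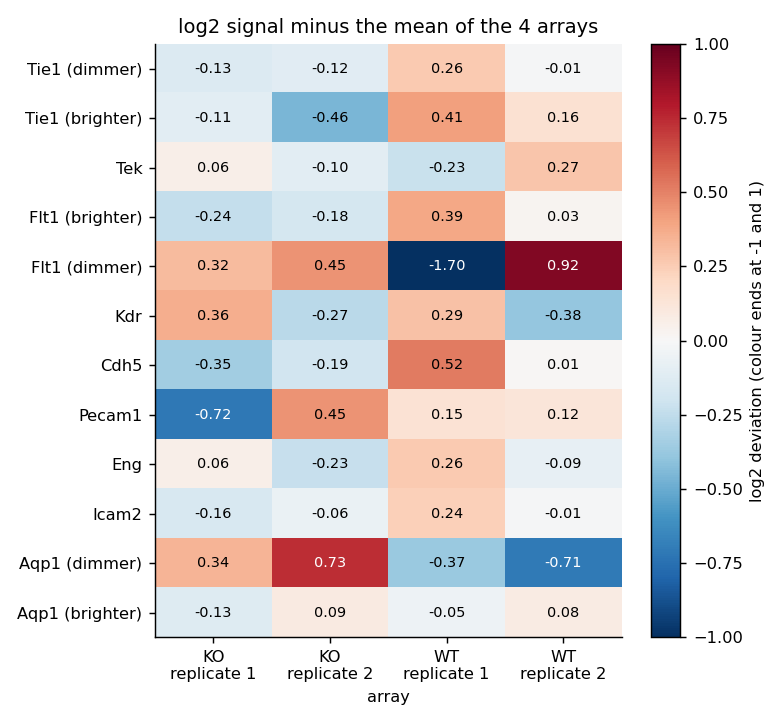
Log2 signal minus the mean of the 4 arrays for each of the 12 tested probe sets (rows) on each array (columns), blue for low and red for high. The WT replicate 1 column is red for Tie1, Cdh5, Eng, Icam2, Kdr, Pecam1 and the brighter Flt1 probe set, and dark blue for the dimmer Flt1 probe set at -1.70.

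**Figure D4:**
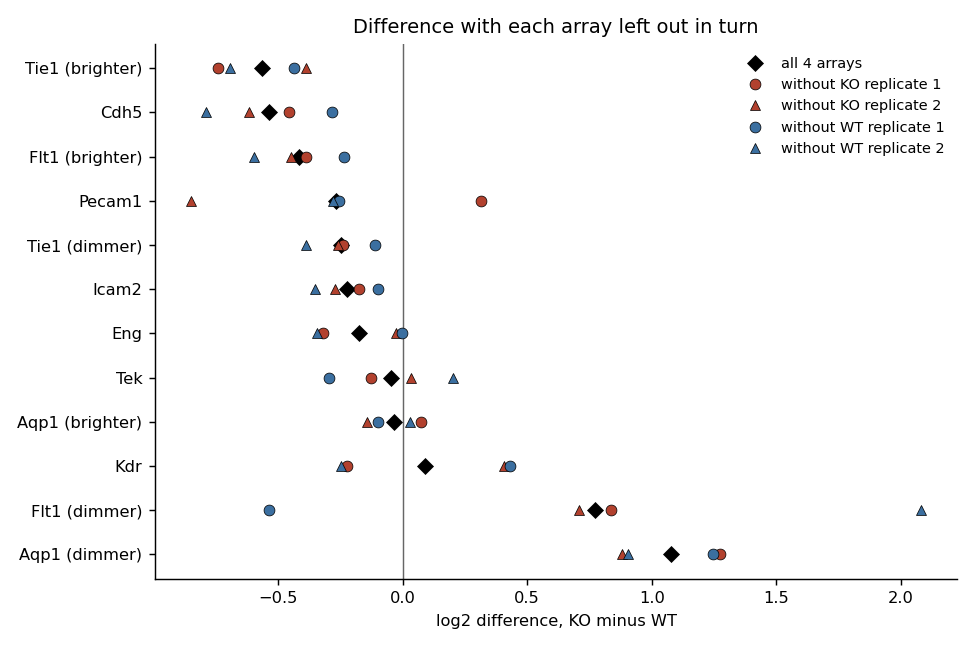
Log2 difference, KO minus WT, of the 12 tested probe sets with all arrays (black) and with each array left out (colours and shapes name the array). Tek, Kdr, Pecam1, the brighter Aqp1 and the dimmer Flt1 cross 0. Tie1 on both probe sets, Cdh5, Icam2 and the brighter Flt1 stay below 0, which was fixed in advance by their lack of overlap. Eng, whose groups overlap, also stays below 0, but lies close to it without WT replicate 1.

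Gene lists for the pathways around the members were then counted, with the brightest tested probe set of each gene. On this basis 9 of the 10 members were tested, 8 had a lower KO mean and 4 were lower without overlap, where 48.5% and 17.5% of the 5653 genes were. No gene of any list passed by limma (adjusted p at or above 0.656), and 0 of the 5653 genes did on their brightest probe sets (368 had an unadjusted p under 0.05), so the names below are values that did not pass. Signals of bright probe sets were more often lower in KO: in the brightest of 5 equal bins 24.1% lay lower without overlap, against 12.5% in the dimmest.

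Co-receptors and partner receptors mostly gave lower KO means. Of 18 genes, 11 were tested, and 9 had a lower and 2 a higher KO mean, where 48.5% of all genes had a lower one, with a median log2 difference of -0.27 beside 0.01 over all genes. Both KO arrays lay below both WT arrays for 8 of the 11, where 17.5% of all genes did, and above them for 2, Acvrl1 and Bmpr2, where 19.9% did; Bmpr2, a BMP receptor, was singled out after its values were seen. Of the 11, only Flt4 had overlapping groups. Nrp1, the VEGF co-receptor neuropilin 1, gave 7016.3 and 7330.7 in KO, against 11782.4 and 9869.5 in WT (log2 -0.59, SE 0.21, limma adjusted p = 0.722); its second probe set had a log2 difference of -0.33. Notch4, an endothelial Notch receptor, gave 460 and 478.4 in KO, against 681.9 and 713.1 in WT (log2 -0.57, SE 0.20, adjusted p = 0.694). On the brighter probe set of each gene the gap between genotypes was wider than that between replicates. The second Nrp1 probe set gave 2765.3 and 1985.4 in KO, against 2632.4 and 3308.9 in WT, with overlap. A dimmer Notch4 probe set under the filter gave 520.4 and 268.4 in KO, against 363.4 and 193.9 in WT. Its groups overlapped and its KO mean was the higher. Efnb2, the arterial ligand ephrin-B2, and Notch1, a Notch receptor, are named here because of their values. Efnb2 gave 776 and 1013.4 in KO, against 1399.9 and 1277.7 in WT (log2 -0.59, SE 0.24). The brighter Notch1 probe set gave 1096.9 and 377.2 in KO, against 1821.9 and 1376.9 in WT (log2 -1.30, SE 0.56, adjusted p = 0.748). KO replicate 2 stood apart there, and the difference was -0.53 without it and -2.07 without KO replicate 1. The other Notch1 probe set, also tested, had a log2 difference of 0.04 (SE 0.21). Over the 12 alternatives the median of the list ran from -0.39 to -0.18.

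Other endothelial markers had 16 of 28 genes tested, with 12 lower and 4 higher KO means, where 48.5% of all genes had a lower one. Without overlap 6 were lower and 2 higher, where 17.5% and 19.9% of all genes were, and the median was -0.12. Edn1, the vasoconstrictor endothelin 1, gave 324.5 and 262.3 in KO, against 444.5 and 560.5 in WT (log2 -0.77, SE 0.25, limma adjusted p = 0.694); a dimmer Edn1 probe set under the filter gave 309.4 and 344.8 in KO, against 316.4 and 188.8 in WT, with overlap. The tested Edn1 probe set entered the test only through its WT signals, since its KO mean of 293 lay under the filter of 350.57 and its WT mean of 502.5 above it, so a difference was partly required of it. Cd36, the fatty acid translocase, which cardiomyocytes make as well, gave 2419.8 and 2839.4 in KO, against 3404.5 and 3551.9 in WT (log2 -0.41). Vwf and Emcn, which mark endothelium widely and were singled out afterwards, had log2 differences of -0.03 and 0.04 with overlapping groups.

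The remaining lists lay near the middle of all genes or above it. Ligands had 8 of 14 genes tested, 3 lower and 5 higher, where 48.5% of all genes had a lower KO mean. Their median of 0.31 ran down to 0.00 across the alternatives. Bmp4 and Bmp6 had log2 differences of 0.35 and 0.31. They were the 2 ligands higher in KO without overlap, and 1 was lower, where 19.9% and 17.5% of all genes were. Vegfa, singled out after its values were seen, gave 623 and 1093.7 in KO, against 1118.7 and 1135.6 in WT (log2 -0.45, SE 0.33, limma adjusted p = 0.829), so that KO replicate 1 stood apart and KO replicate 2 lay close to WT. Junction partners had 12 of 20 genes tested, 6 lower and 6 higher, with a median of 0.02. Without overlap 0 were lower and 3 higher (Ctnnd1, Tjp1 and Vcam1), where 17.5% and 19.9% of all genes were. The catenins of VE-cadherin junctions, Ctnnb1, Ctnna1 and Ctnnd1, singled out after their values were seen and made by cardiomyocytes too, had log2 differences of -0.04, -0.01 and 0.18. Vcam1 gave 867 and 1035 in KO, against 363.4 and 684.7 in WT (log2 0.93), but 0.12 on its dimmer tested probe set, and Tjp1 had 0.29.

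The nitric oxide list had 11 of 22 genes tested, 8 lower and 3 higher, where 48.5% of all genes were lower, with a median of -0.08. Without overlap 2 were lower and 2 higher, where 17.5% and 19.9% of all genes were. Nos2, counted among the 8 lower, had overlapping groups. It entered the test only through its WT signals, with means of 332 in KO and 401 in WT. Hsp90aa1, singled out after its values were seen, gave 6007 and 5316 in KO, against 14856.9 and 7662.4 in WT (log2 -0.92, SE 0.38, limma adjusted p = 0.744). Akt1, a kinase that activates the enzyme made from Nos3, gave 5534.7 and 6117.8 in KO, against 3519.2 and 4190.6 in WT (log2 0.60, SE 0.22, limma adjusted p = 0.722). Asl, of arginine synthesis, had 0.66. A dimmer Asl probe set under the filter, and so not tested, gave 40.5 and 58.5 in KO, against 332.1 and 231.6 in WT. Both of its KO signals lay below the floor of 110. Transcription factors had 14 of 20 tested, 8 lower and 6 higher, with a median of -0.01. Groups overlapped for 13 of the 14, where they did for 3542 of all 5653 genes. Fli1 and Lmo2 had log2 differences of 0.36 and 0.32. Other aquaporins had 2 of 8 tested, Aqp7 at 0.46 and Aqp8 at -0.24.

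**Figure D5:**
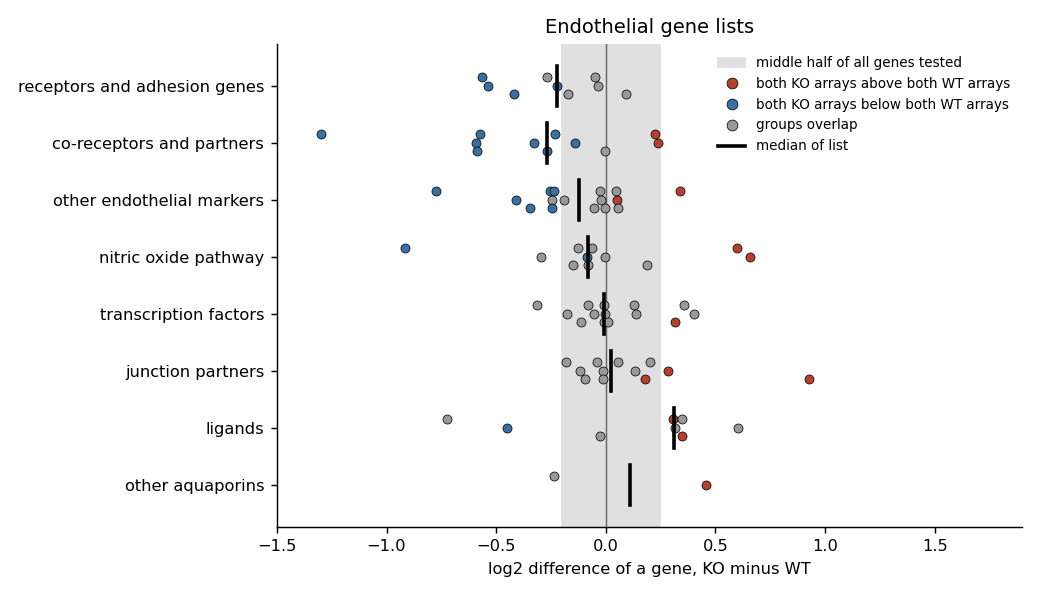
Log2 difference, KO minus WT, of each tested gene of 8 endothelial lists (points, jittered vertically, coloured by whether the groups overlap), with the list median as a black bar and the middle 50% of all genes as a grey band. The co-receptor list has 8 points with both KO arrays below both WT arrays, where 17.5% of all genes have this, and a median of -0.27. The transcription factors have 13 of 14 with overlapping groups, where 3542 of all 5653 genes have them.

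Markers of other cells in the ventricle were measured beside the members, and their part in the results was not tested. The 10 endothelial genes summed to 37980 and 37129 in KO, against 46542 and 40409 in WT. Cardiomyocyte markers, 6 of 8 measured, gave 608370 and 725095 in KO, against 724646 and 716904 in WT, with KO replicate 1 the lowest; Tnnt2 and Tnni3 had log2 differences of -0.20 and -0.16. Fibroblast markers, 7 of 7 measured, gave 84949 and 89270 in KO, against 62110 and 73170 in WT. Of the 7, 6 were higher in KO without overlap, where 19.9% of all genes were, Lum at 0.79 and Col1a1 at 0.63 among them. A dimmer tested Col1a1 probe set, also higher in KO without overlap, had only 0.23. Pericyte and smooth muscle markers, 8 of 9 measured, gave 30620 and 22848 in KO, against 15650 and 16886 in WT, a sum that includes Acta2 (log2 2.04); Kcnj8 had -0.46. Without Acta2, a sum taken after seeing the data, the other 7 gave 11867 and 11932 in KO, against 11514 and 13978 in WT, with overlap. The summed fibroblast signal was thus higher and the endothelial sum lower in KO, without overlap in each case. This was not particular to fibroblasts. The pericyte and smooth muscle sum with Acta2, and the platelet and mesothelial sums given below, were also higher in KO without overlap. Each sum is weighted towards its brightest probe sets. Dcn, with 58034 and 58177 in KO, against 42240 and 50324 in WT, made most of the fibroblast sum. Eng and the brighter Aqp1 probe set, whose groups overlapped, made most of the endothelial sum.

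Blood cells also make some members. Erythroid markers, 5 of 8 measured, gave 159266 and 224869 in KO, against 205214 and 149599 in WT, with overlap; red cells make Aqp1, and of their markers Car2 had a log2 difference of 1.09 and Slc4a1 -0.27. Platelet markers, 4 of 6 measured, gave 1522 and 1333 in KO, against 1081 and 1060 in WT, with Gp1bb below the floor on all arrays, and Gp9 and Gp5 had 0.45 and 0.44; Gp9 entered the test only through its KO signals, with means of 429.8 in KO and 322 in WT. Leukocyte markers, 7 of 8 measured, gave 6339 and 5000 in KO, against 6354 and 6088 in WT, with Cd52 at 0.30 and Tyrobp at -0.43. Lymphatic markers, 4 of 4 measured, gave 2179 and 2378 in KO, against 2102 and 2297 in WT, with Lyve1 at 0.06 and Flt4 at 0.00. Mesothelial markers, 3 of 3 measured, gave 1583 and 1290 in KO, against 1284 and 1031 in WT, with Upk3b at 0.30 and Krt19 below the floor on all arrays.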

How the data were processed

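Per the labels' protocols, total RNA was reverse transcribed from an oligo-dT primer, transcribed into biotin-labelled cRNA and hybridised to one-colour Affymetrix arrays. The authors deposited an intensity per probe set on a linear scale. Its 2% trimmed mean was 1501 on each array; the software, background correction and genome build are not given in the sources used here. The number of arrays, 4, limits the precision. Probe sets were named through the platform's annotation: 10833 had 1 gene, 396 several and 1193 none, and 10817 matched the RefSeq table. The 66 control probe sets and those with a mean under the 40th percentile were left out, signals under the 20th percentile (110) were raised to it, and log2 values were compared by genotype, without pairing, with limma 3.58.1 in R 4.3.3 (lmFit, eBayes). An exact permutation test of 2 against 2 cannot go below p = 0.333, so none is given. The steps were tested on simulated data with added changes larger than those of nearly all members. That run did not test whether changes of the members' size could be found. The members and lists were chosen with earlier results of these data known. Named genes were every member and, of each list, genes past the threshold or else the 2 lowest unadjusted p; others are marked.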

Additional observations from a re-analysis of the deposited data

How the results depend on the processing

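With 2 arrays a genotype and no member past the threshold, no alternative ended or made a call among the members: 0 were called under all 12 alternatives fitted. Of 143 member differences recomputed, 133 kept their direction and 10 did not. The changed filters, the floor at the 5th percentile, the prior and the replicate block left the members' differences as they were. These settings could therefore reverse none, and the 133 overstates stability. All 10 reversals came with median scaling, quantile normalization or an array left out. Leaving out an array could not reverse probe sets whose groups did not overlap. Over all probe sets, 0 were called with the floor at the 5th or 40th percentile, with no filter or with the replicate block, 2 with the filter at the 60th percentile and 2 with the trend and robust prior, and none (0) when any single array was dropped, against 1 in the reported fit. Same-numbered samples did not deviate together (r = 0.011 across probe sets), so the number was not taken as a pairing, and the replicate block changed no call among the members. Kdr was -0.034 after median scaling and the brighter Aqp1 probe set 0.017 after quantile normalization. With each array left out in turn, Kdr ran from -0.25 to 0.43 (below 0 without KO replicate 1 or WT replicate 2), the brighter Aqp1 probe set from -0.14 to 0.074 (above 0 without KO replicate 1 or WT replicate 2), Tek from -0.30 to 0.20 (above 0 without either replicate 2), Pecam1 from -0.85 to 0.32 (above 0 without KO replicate 1) and the dimmer Flt1 probe set from -0.54 to 2.08 (below 0 without WT replicate 1). Median scaling moved the median of all probe sets by -0.13, and the member median to -0.32 (-0.35 by gene); relative to all probe sets it was -0.23 both before and after. Leaving out each array put the median by gene between -0.35 and -0.22, that by probe set between -0.31 and -0.17, and the lower genes at 7 to 8 of 9. The count changed without overlap was 817 over all probe sets at 1.5-fold, 62.4% of them higher, 2091 at 1.2-fold and 268 at 2-fold. For members it was 1, against 4 at 1.2-fold and 3 after median scaling, an alternative chosen after seeing the data. After quantile normalization 48.6% of all those changed were higher, after median scaling 38.0%.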

Other observations

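Probe sets of 1 gene often disagreed on these arrays, which bears on the 3 members with 2 probe sets each. Of 915 genes with several tested probe sets, 399 (43.6%) had log2 differences of both signs, and the median gap between the highest and the lowest was 0.34. Tie1, with a gap of 0.32, lay just under that median, and Flt1 (1.19) and Aqp1 (1.11) were among the 62 and 76 genes with gaps at least as large as their own. The median spread between replicates was 0.45 in the dimmest of 5 equal bins of signal and 0.16 in the brightest (SD on the log2 scale). The dimmer Aqp1 probe set lay in the dimmest bin and the brighter in the brightest.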
